A study of Danio rerio with 16 samples.

Results

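The genes described here encode the machinery of fatty acid oxidation and the proteins that build peroxisomes. They were chosen by gene name: symbols that begin with acad, acox, cpt1, cpt2, hadh, ehhadh, eci1, eci2, decr, echs1, acaa1, acaa2, slc25a20, hsd17b4, crot, crat, scp2, amacr or phyh, symbols that begin with abcd or pex and a digit, and the genes etfa, etfb and etfdh. The rule found 68 members among 26183 genes measured in whole zebrafish (Danio rerio) larvae, 67 of them in all 3 deposited tables. Of these 68 members, 63 had enough reads to be tested, out of 19092 genes tested in all. The larvae were 7 days old and had spent 7 days in solvent (DMSO, the control, n = 4) or in PFBA (perfluorobutanoic acid, of the perfluorinated carboxylic acids) at 0.1 µg/L (n = 3), 1 µg/L (n = 4) or 10 µg/L (n = 5). No strain, genotype or number of larvae per sample is given in the sources used here, and nothing there says that samples came from separate clutches or tanks, so p-values measure the spread between these samples, which may be partly technical.

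Fatty acids are broken down by β-oxidation, which shortens an acyl chain bound to coenzyme A in repeated rounds of dehydrogenation, hydration, a further dehydrogenation and cleavage by a thiolase. Mitochondria take up long chains through the carnitine shuttle and pass the electrons of the first step to the respiratory chain through the electron transfer flavoprotein, while peroxisomes shorten very long and branched chains with their own oxidases and release hydrogen peroxide. Peroxins insert membrane proteins, import enzymes and divide the organelle. In rodent liver many of these genes are controlled by the receptor PPARα, to which perfluorinated acids can bind, so the comparison of each dose with control asks whether this set moved in exposed larvae.

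By role, the members comprised 10 genes of the carnitine shuttle and related acyltransferases, 9 acyl-CoA dehydrogenases, 3 genes of the electron transfer flavoprotein and its oxidoreductase, 6 genes of the later mitochondrial steps, 4 auxiliary isomerases and reductases, 9 genes of peroxisomal β-oxidation, 5 genes of the phyh name group, 6 ABCD transporters and 16 genes with peroxin names. Names do not always match function. In mammals acad9 also assembles respiratory complex I, acad8 and acadsb act on branched-chain amino acids, abcd4 serves lysosomal cobalamin transport, pex5la and pex5lb belong to a pex5-like gene that regulates ion channels, and the phyhip genes are not known enzymes. Members lay on 25 chromosomes of the GRCz11 build, and 2 of them, ABCD2 and ACADSB, lay on unplaced scaffolds. The genes hadhaa (chromosome 20, 47953047 to 47984895, plus strand) and hadhb (chromosome 20, 47927720 to 47953524, minus strand), which encode the α and β subunits of the mitochondrial trifunctional protein, overlap by 478 bases where both genes start. In all, 12 members overlapped another gene of the tables, 5 of them on the same strand, and counts of these, and of close copies such as acadsb and ACADSB, abcd2 and ABCD2, or crata, cratb and CRAT, are less certain.

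Levels between genes were compared as CPM, read counts scaled to a common library size, per kilobase of gene length (CPM per kb), with libraries scaled by trimmed mean of M values (TMM). In control larvae the medium-chain acyl-CoA dehydrogenase acadm (chromosome 2, 26470070 to 26476150) stood highest, at 61.2 ± 4.73 CPM per kb (SD, n = 4). The electron transfer flavoprotein subunits etfa and etfb followed at 52.0 ± 5.52 and 50.2 ± 10.9 CPM per kb, and these 2 did not differ beyond their spread. The enoyl-CoA hydratase echs1 held 35.9 ± 6.60 CPM per kb, the phytanoyl-CoA hydroxylase phyh 32.0 ± 4.14 CPM per kb and pex19, the chaperone of peroxisomal membrane proteins, 31.4 ± 2.88 CPM per kb, and their ranges over control libraries overlapped. The 5 highest members held 34.6% of the summed level of all 68.

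Most of the remaining levels were far lower. A level of at least 10 CPM per kb was reached by 19 members, and 10 members lay under 1 CPM per kb. Among the isoforms of carnitine palmitoyltransferase 1, the gate of the shuttle, the liver-type cpt1aa held 10.8 ± 1.71 CPM per kb, its copy cpt1ab 3.76 ± 1.82 CPM per kb and the muscle-type cpt1b 1.62 ± 0.82 CPM per kb. The peroxisomal multifunctional enzyme hsd17b4 held 20.3 ± 1.53 CPM per kb, while ehhadh, the other bifunctional enzyme, held 1.38 ± 0.43 CPM per kb. The members that were not tested, ABCD2, cpt1cb, pex2, pex5la and amacr, had between 2 and 87 reads each over all 16 libraries, and pex5 and pex11a were not analysed here.

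**Figure D1:**
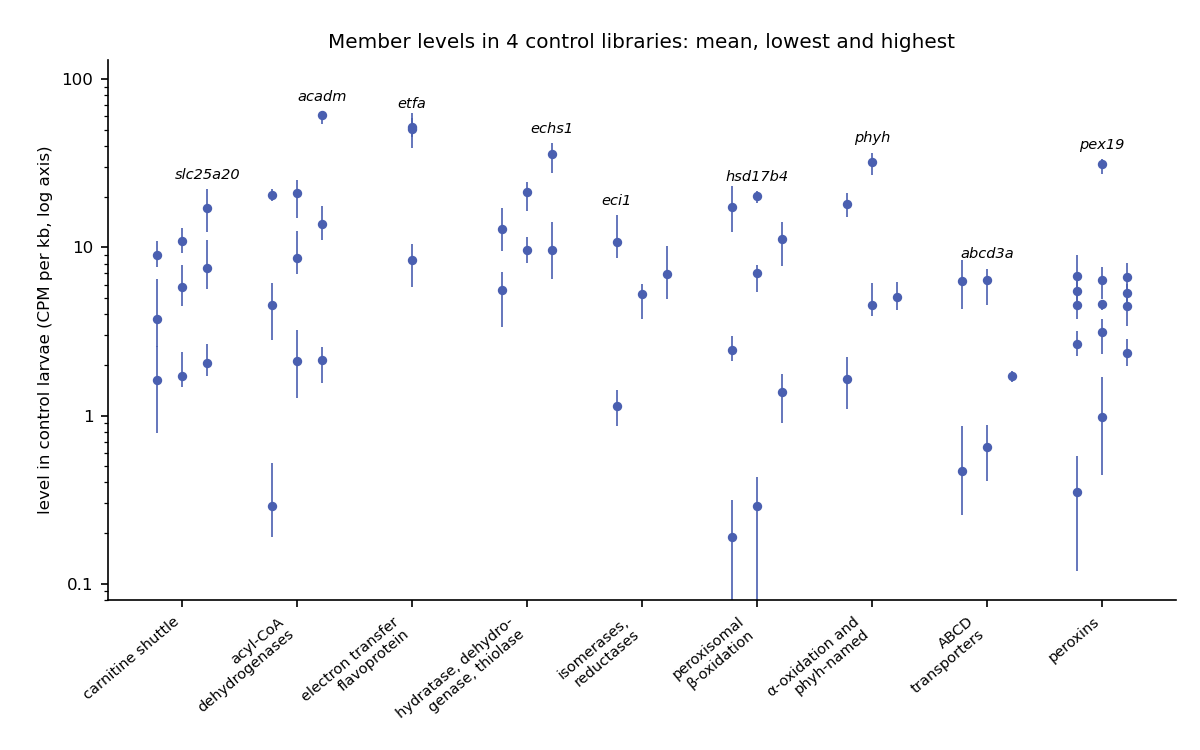
Level of members in control larvae on a log axis, in CPM per kb, with members grouped by role along the horizontal axis and the highest of each role named. Points are means and bars run from the lowest to the highest of 4 control libraries; a few members, 2 of them for lying under 0.1 CPM per kb, are not drawn, and bars that reach lower are cut at the axis. The dehydrogenase acadm, at 61.2 CPM per kb, and the flavoprotein subunits etfa and etfb lie highest, and the ABCD transporters lie lowest as a role.

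Each library held 9708464 to 13862232 reads. Libraries 1 and 2 at 0.1 µg/L (numbers are those of the deposited columns) stood apart from the other 14, with first principal component scores of 174.7 and 101.2, against at most 9.01 elsewhere. Their TMM factors were 0.581 and 0.742, against 0.928 to 1.14 elsewhere. They had reads for 20118 and 21183 genes, against 21247 to 22975 elsewhere. Their 10 genes with the most reads took 17.05% and 14.43% of all reads, against 9.458% to 11.89% elsewhere. The members took 0.140% and 0.137% of the reads in these 2 libraries and 0.150% to 0.172% in the other 14. In whole larvae, fewer cells of a type and less RNA per cell cannot be told apart, and this holds for every level given below.

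At 10 µg/L, the highest dose, no member differed from control past the threshold. edgeR's quasi-likelihood test, adjusted by the Benjamini-Hochberg method over all genes tested, called 0 of 63 members at an adjusted p below 0.05. It called 0.225% of all genes tested. DESeq2 called 0 members and 1.3% of all genes tested, and limma-voom called 0 members and 0.32% of all genes tested. An unadjusted p below 0.05 was reached by 4 members, or 6.35%, against 8.23% of all genes tested. The median log2 fold change over the 63 members was 0.03, against -0.02 over all genes tested, and for 49 members the 95% interval lay inside a 2-fold change in either direction. Medians by role ran from -0.28 for the phyh name group to 0.06 for the electron transfer flavoprotein. Beside this, 1 of 18 skeletal muscle markers and 1 of 18 liver markers had a positive log2 fold change at 10 µg/L, with medians of -0.60 and -0.38 and 0 called. In libraries 1 to 5 at 10 µg/L muscle markers had median log2 ratios of 0.20, -1.16, -2.08, 0.27 and -0.04 to the control mean. Control libraries ran from -1.47 to 0.96. Liver markers had 0.03, -0.96, -1.79, 0.48 and -0.30 in libraries 1 to 5, against -0.95 to 0.79 in control. Of 12 intestine markers 1 was positive, with a median of -0.57, and of 8 heart markers 1, with a median of -0.58, while all 14 lens markers were positive, with a median of 0.91, and 0 genes of these 3 lists were called. Of 16 photoreceptor markers 2 rose at 10 µg/L, gngt2a by 1.48 (SE 0.25, adjusted p = 0.0173) and opn1mw1 by 1.11 (SE 0.21, adjusted p = 0.0396). The part of these markers in the result was not tested.

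The member with the lowest p was abcd2 (chromosome 4, 75292781 to 75308985), a peroxisomal half-transporter of very long-chain acyl groups. It held 1.64, 1.08, 1.28, 1.26 and 1.77 CPM in the 5 libraries at 10 µg/L, against 1.78, 2.97, 3.81 and 2.65 CPM in the 4 control libraries. All exposed libraries lay below all control libraries, by a narrow margin at the edge, and the log2 fold change of -0.99 (SE 0.36) had an adjusted p of 0.406. This was the 1 member whose groups did not overlap, which is 1.59% of members against 5.14% of all genes tested.

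The carnitine octanoyltransferase crot, which carries medium-chain acyl groups out of peroxisomes, held 39.8, 47.8, 50.0, 37.0 and 34.3 CPM at 10 µg/L, against 25.5, 26.4, 36.3 and 31.3 CPM in control. Only control library 4 reached into the exposed range, and the log2 fold change was 0.48 (SE 0.18, adjusted p = 0.419). The flavoprotein oxidoreductase etfdh, which hands electrons to ubiquinone, held 29.9, 24.4, 27.2, 38.2 and 31.1 CPM at 10 µg/L, against 22.4, 26.0, 21.7 and 14.5 CPM in control. The ranges overlapped, with a log2 fold change of 0.51 (SE 0.21, adjusted p = 0.507). The peroxisomal thiolase acaa1 held 6.12, 9.91, 10.9, 9.90 and 9.83 CPM at 10 µg/L, against 13.7, 12.9, 9.62 and 13.9 CPM in control. Control library 4 was inside the exposed range here too, and the log2 fold change was -0.42 (SE 0.19, adjusted p = 0.584).

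The other members with the lowest p at 10 µg/L were the branched-chain oxidase acox3, phyhd1, pex10, acad8, acadsb and phyhipla, with log2 fold changes between -0.52 for pex10 and 0.35 for acad8 and adjusted p between 0.646 and 0.853. Core genes of both pathways showed small differences with narrow errors: the log2 fold change was 0.05 (SE 0.16) for cpt1aa, 0.03 (SE 0.20) for acadm, -0.03 (SE 0.12) for hsd17b4 and 0.01 (SE 0.13) for pex19. The errors were wider for the muscle-type cpt1b, at -0.43 (SE 0.36), and for ehhadh, at 0.06 (SE 0.37).

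At 1 µg/L the result was alike: edgeR called 0 of 63 members, where 0.0681% of all genes tested were called. DESeq2 called 0 members and 0.32% of all genes tested, and limma-voom called 0 members and 0.115% of all genes tested. The 2 members at an unadjusted p below 0.05, or 3.17% against 4.89% of all genes tested, were etfdh and acaa1. This comparison uses the same 4 control libraries as the one at 10 µg/L. etfdh held 36.6, 32.8, 43.7 and 23.7 CPM at 1 µg/L, against 22.4, 26.0, 21.7 and 14.5 CPM in control, a log2 fold change of 0.69 (SE 0.22, adjusted p = 0.724). Library 5 at 1 µg/L lay inside the control range and the other 3 above it.

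For acaa1 the values at 1 µg/L were 8.30, 8.88, 8.83 and 8.64 CPM, against 13.7, 12.9, 9.62 and 13.9 CPM in control. All 4 exposed libraries lay below all 4 controls and close to each other, and the log2 fold change was -0.53 (SE 0.21, adjusted p = 0.949). The groups also did not overlap for abcd3b, a copy of the abundant peroxisomal transporter abcd3, at 2.87, 2.36, 3.42 and 2.67 CPM at 1 µg/L, against 4.32, 4.38, 3.95 and 3.78 CPM in control. These 2 members are 3.17% of those tested, against 5.45% of all genes tested. Over all members the median log2 fold change was -0.03, against -0.02 over all genes tested, and the 95% interval lay inside a 2-fold change for 48 members.

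**Figure D2:**
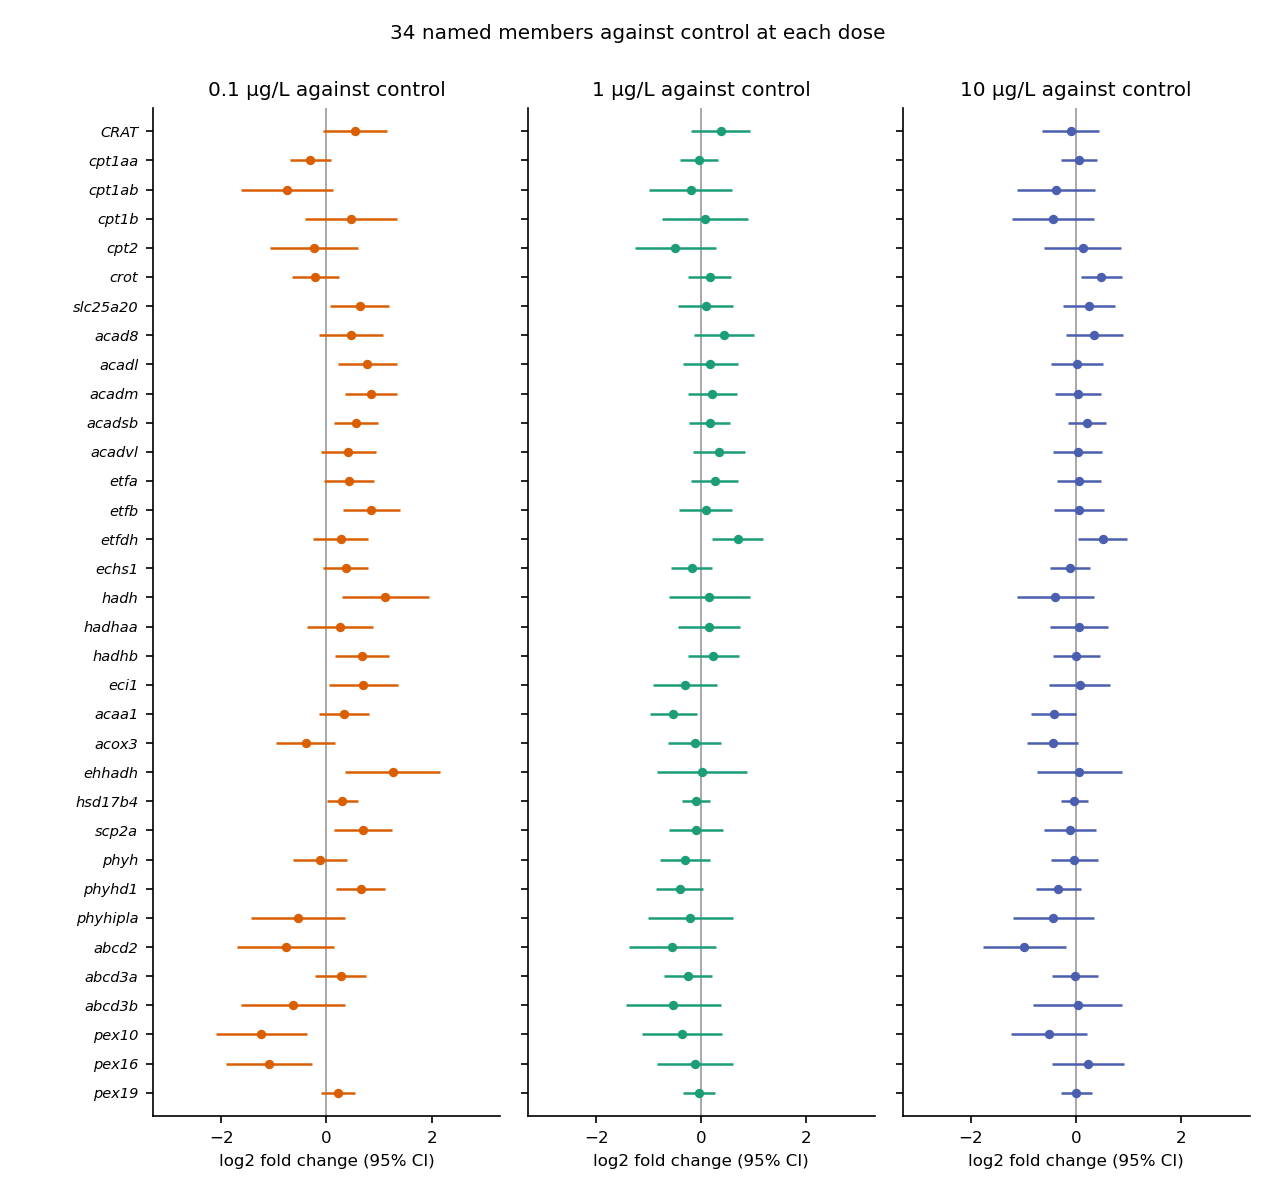
Log2 fold change of 34 named members against control at 0.1, 1 and 10 µg/L (left to right), ordered by role, with points for the estimate of edgeR's fit and lines for its 95% interval. At 1 and 10 µg/L most points lie near 0, and at 0.1 µg/L the mitochondrial enzymes from slc25a20 to eci1 lie mostly to the right and pex10 and pex16 to the left.

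At 0.1 µg/L, the lowest dose, acadm, hadh and several other members lay away from control in library 1, for most of them less so in library 2, and near it in library 3. edgeR called 0 of 63 members against control, and 0% of all genes tested, and limma-voom also called 0 members and 0% of genes. DESeq2 called 11 members, where it called 7.50% of all genes tested. An unadjusted p below 0.05 was reached by 19 members, or 30.2%, against 21.8% of all genes tested. Of these, 14 were higher at 0.1 µg/L, where 12.2% of all genes were, and 5 were lower, where 9.59% of all genes were.

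The lowest p belonged to acadm, which holds the first step for medium chains. It had 345, 212 and 131 CPM in libraries 1, 2 and 3 at 0.1 µg/L, against 113, 131, 135 and 132 CPM in control. Library 3 lay inside the control range, and the log2 fold change was 0.84 (SE 0.23, adjusted p = 0.0864). The hydroxyacyl-CoA dehydrogenase hadh had 109.5, 69.3 and 29.6 CPM at 0.1 µg/L, against 31.9, 36.7, 34.5 and 24.7 CPM in control, with a log2 fold change of 1.12 (SE 0.38, adjusted p = 0.130). For both genes library 1 was the highest of all 16.

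The trifunctional protein subunit hadhb had 154, 96.2 and 71.5 CPM at 0.1 µg/L, against 62.6, 80.3, 68.5 and 56.1 CPM in control (log2 fold change 0.68, SE 0.24, adjusted p = 0.135). The flavoprotein subunit etfb had 183, 107 and 87.6 CPM at 0.1 µg/L, against 76.8, 87.3, 60.8 and 54.0 CPM in control (log2 fold change 0.85, SE 0.25, adjusted p = 0.0950). For etfb all 3 exposed libraries lay above all controls, library 3 by a narrow margin. The very long-chain dehydrogenase acadvl had another order of libraries, with 105, 116 and 82.0 CPM at 0.1 µg/L, against 91.1, 88.2, 70.0 and 53.7 CPM in control, and library 3 lay inside the control range. The peroxisomal bifunctional enzyme ehhadh had 10.8, 8.40 and 5.43 CPM at 0.1 µg/L, against 4.25, 4.38, 2.77 and 2.25 CPM in control, a log2 fold change of 1.26 (SE 0.41, adjusted p = 0.122), and here library 3 was above every control as well.

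Some peroxins of low level lay below control in libraries 1 and 2. The membrane biogenesis factor pex16 had 1.62, 2.49 and 6.63 CPM at 0.1 µg/L, against 8.57, 8.82, 6.64 and 7.15 CPM in control (log2 fold change -1.10, SE 0.38, adjusted p = 0.133). The ubiquitin ligase subunit pex10 had 1.37, 1.14 and 3.45 CPM at 0.1 µg/L, against 4.87, 3.56, 4.91 and 5.70 CPM in control (log2 fold change -1.24, SE 0.40, adjusted p = 0.119). In both genes library 3 lay just under the lowest control. pex19, the peroxin of the highest level per length, had 88.0, 85.1 and 69.0 CPM at 0.1 µg/L, against 60.0, 72.8, 71.2 and 73.7 CPM in control, with a log2 fold change of 0.22 (SE 0.15).

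Copies of a gene did not always go together in libraries 1 and 2 at 0.1 µg/L. scp2b, a copy of the lipid transfer gene scp2a, had 1.12, 1.45 and 11.3 CPM at 0.1 µg/L, against 13.7, 13.0, 9.27 and 7.47 CPM in control, with a log2 fold change of -1.20 (SE 0.54, adjusted p = 0.210), while scp2a had 80.8, 62.5 and 57.6 CPM at 0.1 µg/L, against 55.1, 48.0, 33.0 and 29.6 CPM in control, with one of 0.69 (SE 0.25, adjusted p = 0.152). Of these 7 libraries, 1 and 2 at 0.1 µg/L were the lowest for scp2b and the highest for scp2a. For abcd3b the values were 1.49, 1.14 and 5.17 CPM at 0.1 µg/L, against 3.78 to 4.38 CPM in control, and for abcd3a they were 25.0, 19.0 and 20.8 CPM at 0.1 µg/L, against 12.7 to 20.9 CPM in control. The trifunctional α subunit genes hadhaa and hadhab had log2 fold changes of 0.25 (SE 0.29) and 0.23 (SE 0.24), and their difference from hadhb was not tested.

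In all, the groups did not overlap for 9 members at 0.1 µg/L, which is 14.3% against 8.73% of all genes tested. CRAT, acaa1, ehhadh, etfb and scp2a lay above control, and acox3, pex10, pex16 and pex5lb below. The median log2 fold change over members was 0.20, against -0.09 over all genes tested. By role it was 0.56 for the acyl-CoA dehydrogenases, 0.51 for the later mitochondrial steps, 0.42 for the electron transfer flavoprotein, 0.02 for peroxisomal β-oxidation, -0.21 for the carnitine shuttle and -0.28 for the peroxins.

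**Figure D3:**
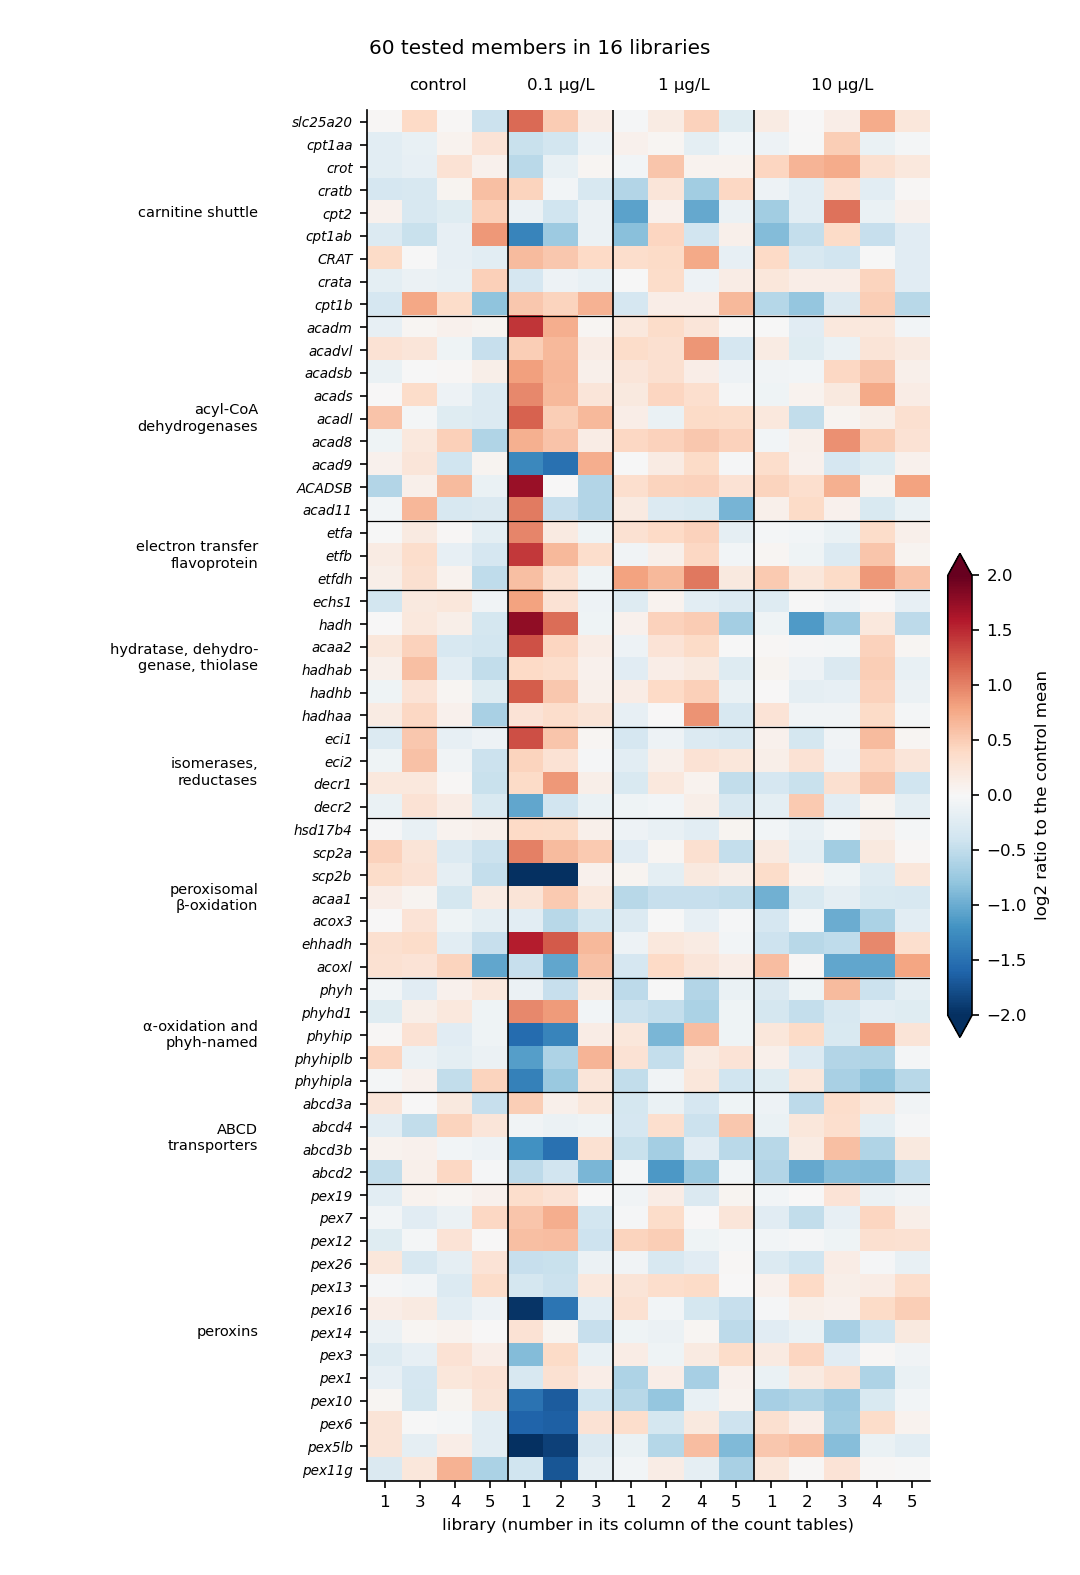
Log2 ratio of each of 60 tested members (rows, grouped by role) to its mean in control larvae, in 16 libraries (columns, by dose and numbered as in the deposited columns), from log2 of CPM plus 0.5, with the colour scale ending at 2 in either direction. Libraries 1 and 2 at 0.1 µg/L show the strongest colours, red in the dehydrogenases, flavoprotein subunits and later mitochondrial steps and blue in scp2b, pex16, pex10, pex6 and pex5lb, and library 3 resembles the controls.

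These role medians depend on how libraries are scaled. With library size alone in place of TMM factors, the median over all genes tested at 0.1 µg/L against control moved to -0.50, the median of members to -0.27, that of the dehydrogenases to 0.04, that of the later mitochondrial steps to -0.02 and that of the peroxins to -0.66. The gap between 2 roles inside a library hardly depends on scaling. The median of the dehydrogenases minus that of the peroxins, each as log2 ratio to the control mean, was 1.39, 1.01 and 0.31 in libraries 1, 2 and 3 at 0.1 µg/L, against -0.01, 0.25, -0.13 and -0.32 in control libraries 1, 3, 4 and 5. At 1 µg/L it lay between -0.01 and 0.43 and at 10 µg/L between 0.01 and 0.27. These 2 roles have the highest and the lowest median at 0.1 µg/L against control, so the gap follows from their choice and is a description only. For the later mitochondrial steps minus the peroxins it was 1.44, 0.83 and 0.26 in libraries 1, 2 and 3 at 0.1 µg/L, against 0.09, 0.39, 0.01 and -0.41 in control, so library 3 lay inside the control range.

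Library 3 decides the count of calls at 0.1 µg/L. Without it edgeR called 28 of 63 members against control, where it called 32.0% of all genes tested. Of these 28 members, 17 were higher, where 12.6% of all genes were, and 11 were lower, where 19.4% of all genes were. The higher ones were 5 dehydrogenases, 4 genes of the later mitochondrial steps, 2 flavoprotein subunits, 3 genes of peroxisomal β-oxidation and slc25a20, eci1 and phyhd1. The lower ones were scp2b, acad9, abcd3b, phyhip, phyhiplb and phyhipla and 5 genes with peroxin names, among them pex16, pex6, pex10 and pex5lb. Without library 1 or without library 2, 0 members and 0% of all genes tested were called.

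Values in these libraries differed by level and by gene length, and organ markers differed too. The 32 members at or above the median member level of 16.2 CPM had median log2 ratios to control of 0.47, 0.30 and 0.06 in libraries 1, 2 and 3 at 0.1 µg/L, and the 31 members below it had -0.45, -0.46 and 0.03. Over all genes tested on the same sides of that level, libraries 1 and 2 were at -0.05 and 0.00 above it and at -0.23 and -0.15 below it. Levels for this split were means over all 16 libraries, these included, so part of the difference can follow from the split itself. All tested genes of at least 2389 bases, the median member length, were at -0.33 and -0.19 in libraries 1 and 2, and shorter ones at 0.16 and 0.11. Members of at least that length were at 0.14 and -0.11, and shorter ones at 0.40 and 0.39. The part of level and length in the result was not tested. The summed level of 18 skeletal muscle markers was 89655, 51473 and 27795 CPM in libraries 1, 2 and 3 at 0.1 µg/L, against 8331 to 32541 CPM in control, and that of 18 liver markers was 4763, 3739 and 1854 CPM, against 599 to 2282 CPM in control. All 18 markers of either list had a positive log2 fold change at 0.1 µg/L, 0 of them called and none at 0 in any group. Other organ lists differed in these libraries as well. Summed heart markers held 276, 223 and 111 CPM at 0.1 µg/L, against 65.8 to 114 CPM in control. Intestine markers held 1287, 801 and 506 CPM, against 192 to 454 CPM in control, and erythrocyte markers held 519, 328 and 169 CPM, against 62.6 to 214 CPM in control. Of the erythrocyte markers, hbba1 and hbaa1 were at 0 in all 3 libraries at 0.1 µg/L, and hbba1 was also at 0 in all libraries at 1 and at 10 µg/L. Lens markers held 9446, 5802 and 3467 CPM, against 1971 to 3124 CPM in control. Kidney tubule markers were lower in libraries 1 and 2, with 200.4, 206 and 319 CPM, against 293 to 334 CPM in control, and neuron and photoreceptor markers held 4938 to 5402 and 9355 to 11760 CPM, against 5159 to 6207 and 8316 to 13399 CPM in control. The part of these markers in the result was not tested.

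**Figure D4:**
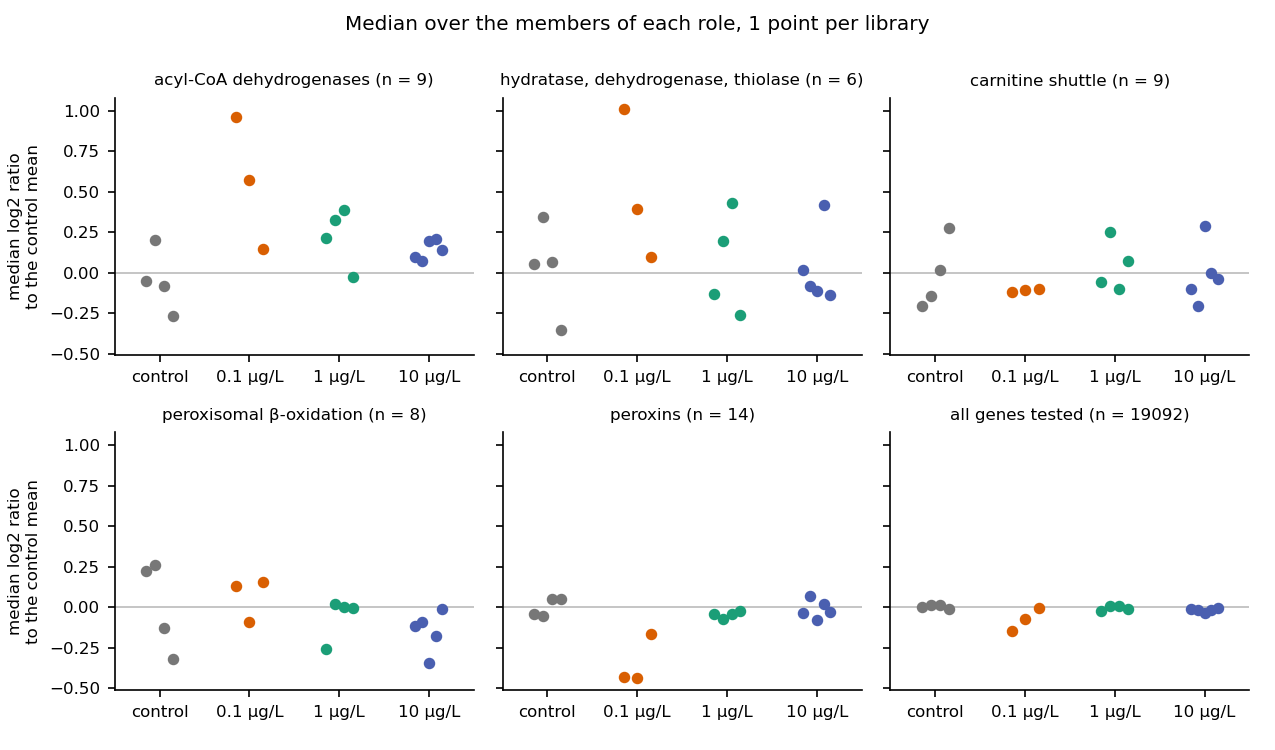
Median log2 ratio to the control mean over the tested members of 5 roles and over all genes tested, with 1 point per library and groups from control to 10 µg/L along the horizontal axis. Libraries 1 and 2 at 0.1 µg/L lie at 0.96 and 0.57 for the dehydrogenases and at -0.43 and -0.44 for the peroxins, outside the range of the other libraries, while the carnitine shuttle lies between -0.12 and -0.10 in all 3 libraries at 0.1 µg/L.

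Between doses, calls were made in the comparison of 10 with 0.1 µg/L. edgeR called 8 of 63 members, or 12.7%, near the 10.6% of all genes tested that were called. Of these, pex16 and crot rose at 10 µg/L relative to 0.1 µg/L, where 3.26% of all genes did, and phyhd1, hadh, acadm, acaa1, etfb and scp2a fell, where 7.34% of all genes did. With library size alone, 1 member was called, crot, which was higher, and 6.26% of all genes were. Over all genes this scaling turned the split of calls to 926 higher and 269 lower, against 623 higher and 1402 lower with TMM factors. The groups did not overlap for 8 members, or 12.7%, against 13.2% of all genes tested.

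The lowest p was that of phyhd1 (chromosome 21, 4508959 to 4525080), named for its phytanoyl-CoA dioxygenase domain. It held 21.6, 19.6, 21.8, 23.8 and 23.3 CPM at 10 µg/L, against 53.8, 50.3 and 26.4 CPM at 0.1 µg/L. It fell by 0.98 on the log2 scale (SE 0.21, adjusted p = 0.0119) and the groups did not overlap. The 4 control libraries had 23.1, 30.0, 32.0 and 25.9 CPM. phyhd1 was also the 1 member called in the test over the 4 groups (adjusted p = 0.0371), where 2.34% of all genes tested were called.

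Among the mitochondrial genes, hadh had 29.9, 14.2, 18.9, 36.8 and 21.9 CPM at 10 µg/L, against 109.5, 69.3 and 29.6 CPM at 0.1 µg/L, and fell by 1.51 (SE 0.36, adjusted p = 0.0188). Library 4 at 10 µg/L lay above library 3 at 0.1 µg/L, so the ranges overlapped. acadm had 127, 109, 148, 147 and 122 CPM at 10 µg/L, against 345, 212 and 131 CPM at 0.1 µg/L, and fell by 0.81 (SE 0.21, adjusted p = 0.0275). etfb had 70.6, 64.7, 56.5, 101 and 71.4 CPM at 10 µg/L, against 183, 107 and 87.6 CPM at 0.1 µg/L, and fell by 0.79 (SE 0.23, adjusted p = 0.0413).

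Among the peroxisomal genes, acaa1 had 6.12, 9.91, 10.9, 9.90 and 9.83 CPM at 10 µg/L, against 14.9, 18.1 and 14.5 CPM at 0.1 µg/L, and fell by 0.76 (SE 0.21, adjusted p = 0.0314). Unlike the mitochondrial genes it was nearly as high in library 3 as in library 1 at 0.1 µg/L. scp2a, a lipid transfer protein with a thiolase form, had 45.5, 34.9, 24.6, 45.9 and 40.7 CPM at 10 µg/L, against 80.8, 62.5 and 57.6 CPM at 0.1 µg/L, and fell by 0.80 (SE 0.24, adjusted p = 0.0424). pex16 had 7.62, 8.44, 8.26, 10.3 and 11.1 CPM at 10 µg/L, against 1.62, 2.49 and 6.63 CPM at 0.1 µg/L, and rose by 1.33 (SE 0.37, adjusted p = 0.0320). crot had 39.8, 47.8, 50.0, 37.0 and 34.3 CPM at 10 µg/L, against 20.3, 26.6 and 30.5 CPM at 0.1 µg/L, and rose by 0.69 (SE 0.20, adjusted p = 0.0372), and every library at 10 µg/L was higher than every library at 0.1 µg/L.

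Without library 1 or without library 2 at 0.1 µg/L, which leaves 2 libraries at that dose, 0 members were called, where 0.440% and 1.33% of all genes tested were. Without both 0 members and 0% of genes were called. In that last fit, with 1 library at 0.1 µg/L, the log2 fold change was -0.64 for acaa1, -0.59 for scp2a, 0.45 for crot and 0.46 for pex16, and it was -0.29 for hadh, -0.27 for etfb, -0.26 for phyhd1 and -0.01 for acadm. The lone library is assumed there to vary like the other groups. Without library 3 at 0.1 µg/L 27 members were called, where 36.6% of all genes tested were. Leaving out library 1, 2, 3 or 5 at 10 µg/L left 5, 1, 5 and 3 members called, where 7.49%, 3.21%, 6.42% and 5.49% of all genes were. A fit of the 8 libraries of these doses alone called 0 members and 0.847% of all genes. Of 26 alternatives, phyhd1 was called in 21, hadh in 20, acadm in 18, acaa1 and pex16 in 17 each and crot in 16. The calls of scp2a and etfb were the least stable, at 12 and 10, and etfb was not called by limma-voom.

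**Figure D5:**
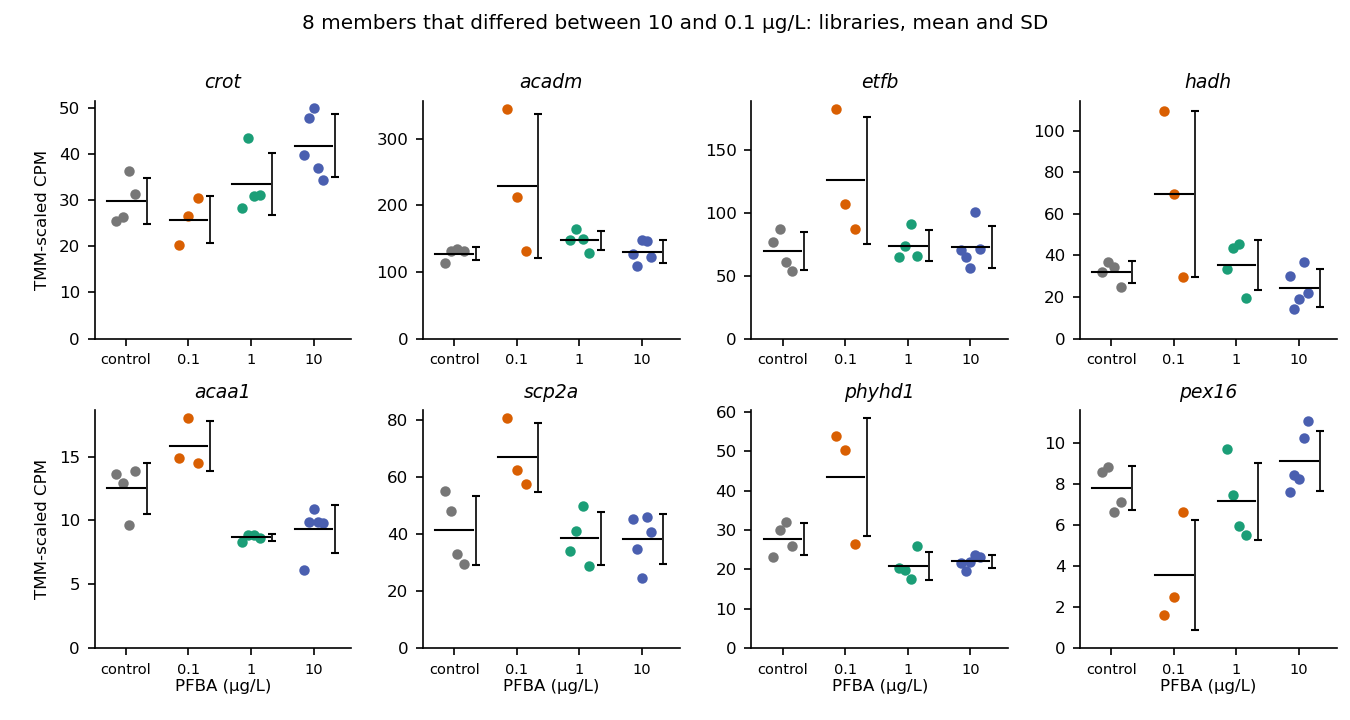
Level in TMM-scaled CPM of the 8 members that differed between 10 and 0.1 µg/L, with 1 point per library, groups from control to 10 µg/L along the horizontal axis, lines for group means and bars for 1 SD. At 0.1 µg/L libraries 1 and 2 lie far from library 3 for acadm, hadh, phyhd1 and pex16, while acaa1, with 14.9, 18.1 and 14.5 CPM, is high in all 3.

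The other comparisons called few or no members. Between 10 and 1 µg/L 0 members were called, as were 0% of all genes tested, and 0 members reached an unadjusted p below 0.05, against 2.88% of all genes. Between 1 and 0.1 µg/L 0 members were called with edgeR and 7 with DESeq2, where edgeR called 0.194% and DESeq2 7.84% of all genes tested, and 17 members, or 27.0%, reached an unadjusted p below 0.05, against 22.3% of all genes. phyhd1 came nearest, with 20.4, 19.7, 17.5 and 26.0 CPM at 1 µg/L, against 53.8, 50.3 and 26.4 CPM at 0.1 µg/L (log2 fold change -1.05, SE 0.22, adjusted p = 0.0545). A linear trend over equal steps from control to 10 µg/L called 0 members and 0.288% of all genes tested. Its unadjusted p was below 0.05 for 5 members, or 7.94%, against 10.1% of all genes, and crot had the lowest, with a slope of 0.18 log2 units per step (SE 0.06, adjusted p = 0.273). The authors' deposited table gave no member an adjusted p below 0.05 at any dose, where it did so for 0.28%, 0.443% and 1.53% of all genes at 0.1, 1 and 10 µg/L. At 0.1 µg/L the authors' deposited table lists 31 of 67 members with an adjusted p of exactly 1. These values do not follow the order of the authors' unadjusted p. ehhadh is among them at an unadjusted p of 0.0018, while acadm, at 0.0081, has an adjusted p of 0.0993. Such an entry can stand for a missing value, so for these 31 members the absence of a call cannot be read as a result. The same holds for 7 of 67 members at 1 µg/L and 2 of 68 at 10 µg/L, which also have this entry.

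Libraries of 1 group also differed among themselves. Library 3 at 10 µg/L and control library 5 held the highest levels of cpt2, at 39.0 and 25.1 CPM, while the other 14 libraries held 8.30 to 19.2 CPM. The level of cpt1ab was 24.3 CPM in library 3 at 10 µg/L and 34.1 CPM in control library 5, and of the others only library 2 at 1 µg/L, at 25.0 CPM, came as high. In control library 5 the later mitochondrial steps had a median log2 ratio of -0.36 to the control mean, with 0 of 6 members above it, while the carnitine shuttle stood at 0.28. In control library 3 these medians were 0.34, with all 6 members above it, and -0.14.

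Other genes of lipid metabolism, in lists chosen with earlier results of these data known, gave no call against control. Of 13 tested PPAR receptors and coactivators 0 were called at any dose, and pparaa, a copy of the PPARα gene, had a log2 fold change of -0.81 (SE 0.23, adjusted p = 0.0936) at 0.1 µg/L. At that dose 2 of the 13 were positive, with a median of -0.70. At 1 and 10 µg/L 6 and 4 were, with medians of -0.05 and -0.13. The summed level of this PPAR list was 133, 197 and 373 CPM in libraries 1, 2 and 3 at 0.1 µg/L, against 328 to 389 CPM in control. Of 15 tested PPARα-responsive genes outside the members 9 had a positive log2 fold change at 0.1 µg/L, with a median of 0.62. The summed level of this list was 1141, 722 and 578 CPM in libraries 1, 2 and 3 at 0.1 µg/L, against 453 to 566 CPM in control. At 1 µg/L 6 of the 15 were positive, with a median of -0.24, and at 10 µg/L 5 were, with a median of -0.08. Of these 15 genes 0 were called against control at any dose. The mitochondrial uncoupling protein gene ucp3 came nearest, with a log2 fold change of -1.22 (SE 0.29, adjusted p = 0.0895) at 10 µg/L and -0.92 (SE 0.30, adjusted p = 0.752) at 1 µg/L. Of 21 genes of fatty acid uptake and activation 0 were called, and the fatty acid receptor cd36 had -0.84 (SE 0.24, adjusted p = 0.206) at 10 µg/L, -0.60 (SE 0.25, adjusted p = 0.985) at 1 µg/L and 0.89 (SE 0.27, adjusted p = 0.102) at 0.1 µg/L. Between 10 and 0.1 µg/L both passed the threshold: cd36 fell by 1.74 (SE 0.25, adjusted p = 0.00379) and ucp3 fell by 1.84 (SE 0.30, adjusted p = 0.00587) at 10 µg/L. In that comparison 0 of the PPAR list, 2 of the 15 PPARα-responsive genes (both lower) and 3 of the 21 uptake and activation genes (1 higher, 2 lower) were called. Of all genes tested 10.6% were called there, 3.26% higher and 7.34% lower.

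Further from the core, 0 of 31 other peroxisomal enzymes and membrane proteins were called against control, among them catalase (cat), which breaks down hydrogen peroxide, with a log2 fold change of 0.41 (SE 0.14, adjusted p = 0.317) at 10 µg/L and 0.43 (SE 0.14, adjusted p = 0.777) at 1 µg/L. None of 8 genes of ketone body metabolism, 8 of carnitine synthesis and uptake and 3 of malonyl-CoA control was called against control at any dose. At 0.1 µg/L 4, 6 and 0 genes of these lists were positive, with medians of -0.04, 0.47 and -0.72. The summed level of the malonyl-CoA list was 30.8, 52.4 and 114 CPM in libraries 1, 2 and 3 at 0.1 µg/L, against 100.2 to 109.7 CPM in control. Between 10 and 0.1 µg/L 3 of the 31 (1 higher, 2 lower) and 3 of the carnitine genes (all lower) were called, where 10.6% of all genes tested were. Among 30 circadian clock genes 4 rose and 5 fell at 10 µg/L, and 2 rose at 1 µg/L, where 0.225% and 0.0681% of all genes tested were called. This list too was chosen with earlier results of these data known, so its calls cannot serve as a contrast to the members. The lowest p at 10 µg/L was that of the cryptochrome gene cry3b, which rose by 2.51 (SE 0.36, adjusted p = 0.00713), and nr1d1, which encodes a repressor of the clock, fell by 4.05 (SE 0.81, adjusted p = 0.0493).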

How the data were processed

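RNA sequencing was run on 16 samples of whole larvae, and polyadenylated RNA was made into strand-specific libraries, per the labels' protocols. The authors deposited 3 tables, 1 per dose, each with the same control columns and with raw read counts per gene, which were used here. The build GRCz11 and the tools HISAT2, featureCounts, fastp and DESeq2 are named in the submitters' processing notes, without versions. How counting treated strand, and which annotation it used, is not stated there. The authors' normalized signal and FPKM values, also deposited, were not used (48 columns of single libraries, and means per group). The authors' deposited log2 fold changes and p-values were read only for the members.

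The tables were joined into 26183 genes, of which 24560 were in all 3, and genes absent from a table got 0 reads in its exposed libraries (10528 cells). Columns of control and 1 µg/L carry other numbers than the sample titles, so they were assigned to a group only. Column numbers gave no clear pairing: of 18 same-number pairs 5 had a correlation of deviations over 0.1, with a range of -0.441 to 0.447. Pairs of different number were not compared, so this cannot exclude a pairing. No library was a duplicate. Genes were filtered with filterByExpr and fitted in 1 model of 16 libraries (12 residual degrees of freedom) with edgeR 4.0.16 in R 4.3.3 (TMM factors, robust quasi-likelihood F test), which was tested on simulated data. The Benjamini-Hochberg adjustment ran over all 19092 genes, and a gene was called below an adjusted p of 0.05. The SE was derived from the F statistic. DESeq2 1.42.0 and limma 3.58.1 were alternatives. Levels are TMM-scaled CPM, and log2 ratios per library added 0.5 CPM.

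The members, 17 lists (281 symbols, 256 of them matched), roles and alternatives were chosen with earlier results of these data known. Named members were the 10 with the lowest p at each dose, every called member, the highest of each role per length, and a set of core enzymes. The copies scp2b and hadhab were named after their values were seen, as were the members called without library 3. A few members enter the counts and medians but are not reported here. Levels near 1 CPM rest on few reads, so counting error adds to the replicate spread there.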

Additional observations from a re-analysis of the deposited data

Results flagged for a closer look

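In 11 of 102 tests of a named member in a group of 4 or 5 libraries, 1 library stood apart from its group by Dixon's criterion, which chance alone gives about 1 time in 20. Library 3 at 10 µg/L was high for cpt1aa at 56.2 CPM, pex19 at 83.5 CPM and phyh at 147 CPM. Library 4 at 10 µg/L was high for cpt1b at 7.83 CPM, hadhb at 91.1 CPM and slc25a20 at 39.5 CPM. Library 1 at 10 µg/L was low for acaa1 at 6.12 CPM. Library 2 at 1 µg/L was high for echs1 at 52.8 CPM. Among controls, library 1 was low for acadm at 113 CPM, library 3 was high for eci1 at 17.5 CPM and library 5 was high for cpt1ab at 34.1 CPM.

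For 8 members, or 12.7%, near the 10.6% of all genes tested, the test between 10 and 0.1 µg/L passed the threshold in edgeR. In that fit their changes from control differed between these doses. The log2 differences, 10 minus 0.1 µg/L, were -0.98 for phyhd1, -1.51 for hadh, -0.81 for acadm, -0.76 for acaa1, 1.33 for pex16, 0.69 for crot, -0.79 for etfb and -0.80 for scp2a. Without library 1 or without library 2 at 0.1 µg/L 0 members were called, where 0.440% and 1.33% of all genes were. The fit of these 2 groups alone called 0 members and 0.847% of all genes.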

How the results depend on the processing

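In all alternatives run, 0 members were called at 10 and at 1 µg/L against control, between 10 and 1 µg/L and in the dose trend. In these 4 comparisons the alternatives called at most 1.3%, 0.644%, 0.0419% and 2.4% of all genes tested, in that order, so few calls could be looked for among 63 members. In what follows the share of all genes tested that were called stands in brackets. At 0.1 µg/L against control DESeq2 called 11 (7.50%), and leaving out 1 library gave 0 to 28 (0% to 32.0%). Between 10 and 0.1 µg/L (8 calls), DESeq2 gave 13 (18.0%), library size alone 1 (6.26%), the compared groups alone 0 (0.847%), the fit without libraries 1 and 2 at 0.1 µg/L 0 (0%), the fit without 1 library each of the higher doses (number 5 of 1 µg/L, number 3 of 10 µg/L) 4 (5.72%), and leaving out 1 library 0 to 27 (0.44% to 36.6%). Between 1 and 0.1 µg/L (0 calls), DESeq2 size factors in edgeR gave 1 (0.45%), DESeq2 7 (7.84%), the fit without those 2 libraries 1 (1.13%), and leaving out 1 library 0 to 24 (up to 31.2%). Over the 4 groups (1 call), DESeq2 gave 10 (12.5%), library size alone 0 (0.267%), limma-voom 0 (1.21%), the fit without libraries 1 and 2 at 0.1 µg/L 0 (0.176%), and leaving out 1 library 0 to 21 (0.297% to 27.4%). In each of these comparisons the highest count came without library 3 at 0.1 µg/L. Whether the column numbers pair the libraries is not known, and the replicate block gave 2 calls between 10 and 0.1 µg/L (2.85%) and 0 over the 4 groups (0.278%).

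The median of members at 0.1 µg/L against control was -0.27 with library size alone, and 0.08 to 0.28 with 1 library left out. For 10 against 0.1 µg/L (-0.19) it was 0.29 with library size alone, -0.053 with limma-voom, -0.012 without libraries 1 and 2 at 0.1 µg/L, and -0.25 to -0.069 with 1 library left out. For 1 against 0.1 µg/L (-0.14) it was 0.29 with library size alone, -0.037 without libraries 1 and 2 at 0.1 µg/L, -0.044 without the other pair, and -0.23 to -0.037 with 1 library left out. The cause of these shifts was not tested. Members with few reads, such as acoxl, are limited by depth.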

Other observations

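Muscle and liver markers varied between libraries at 1 and 10 µg/L and in control, in some libraries in the same direction as the mitochondrial members and in others not. The median log2 ratio of 18 skeletal muscle markers to the control mean was 1.04 in library 4 at 1 µg/L and 0.96 in control library 3, and the later mitochondrial steps stood at 0.43 and 0.34 in these libraries. It was -2.08 in library 3 at 10 µg/L and -1.47 in control library 5, where the later mitochondrial steps stood at -0.12 and -0.36 and the carnitine shuttle at 0.29 and 0.28. The 18 liver markers stood at 0.48 in library 4 at 10 µg/L, at -1.79 in library 3 at 10 µg/L and at -0.95 in control library 5. These libraries were picked after their values were seen, the values share libraries and scaling, and the part of the markers in the members' levels was not tested.

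Muscle markers and later mitochondrial steps had opposite signs in library 1 at 1 µg/L, at 0.25 and -0.13, and in control library 4, at -0.10 and 0.06. In all other libraries their signs were the same, though the sizes did not always go together. Library 2 at 10 µg/L had muscle and liver markers at -1.16 and -0.96 and later mitochondrial steps at -0.08, and control library 1 had these markers at 0.68 and 0.79 and the later steps at 0.05. The median of the dehydrogenases was 0.20 in library 3 at 10 µg/L and -0.27 in control library 5.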
